A study of Homo sapiens with 16 samples.

Results

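The genes described are 10 regulators of apoptosis of the BCL2 family, chosen by name from a matrix of 20502 named genes. Anti-apoptotic proteins are encoded by 4 of them, BCL2, BCL2L1, MCL1 and BCL2A1, and BH3-only proteins by the other 6, BCL2L11, BBC3, PMAIP1, BMF, BIK and HRK. RNA was sequenced from 8 established breast cancer lines of the basal-like and claudin-low group, HCC1143, HCC1395, HCC38, HCC70, MDA-MB-157, MDA-MB-231, MDA-MB-436 and MDA-MB-468. Each line was treated for 6 h with topsentinol L trisulfate (TLT), a trisulfated sterol purified from a marine sponge, or with DMSO, its vehicle, in medium with serum. Each line gave 1 library per treatment, 16 in all, so a line is the unit of replication and no line was repeated within a treatment. The labels give the dose of TLT as the EC75. The study's methods name a common concentration near the average EC75 for the protein array on the same lines and at the same time, and for the RNA samples they do not repeat a concentration.

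BCL2 family proteins control the permeability of the outer mitochondrial membrane. The anti-apoptotic members bind and hold back the pore-forming effectors BAX and BAK, and the BH3-only members, named for the single BCL2 homology domain they share with the family, bind the anti-apoptotic proteins or activate the effectors directly. Opening of the membrane releases cytochrome c, which assembles the apoptosome with APAF1 and activates caspases. Many BH3-only genes are switched on by stress at the level of transcription, while the proteins MCL1 and NOXA are turned over quickly, so RNA gives only a part of their control. In breast carcinomas of the triple-negative kind MCL1 and BCL2L1 are known survival factors.

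The 2 BH3-only genes PMAIP1 and BCL2L11 rose with TLT, and the other 7 members that could be tested did not pass the threshold. Of all genes tested 25.9% passed, 15% higher and 10.9% lower, so 2 of 9 is close to the share in the whole table. PMAIP1, which encodes NOXA, a BH3-only protein that binds MCL1, rose 1.64-fold (log2 0.71, SE 0.16, 8 lines). BCL2L11, which encodes BIM, an activator that binds all anti-apoptotic members, rose 1.31-fold (log2 0.39, SE 0.11, 8 lines), a call that was lost with another scaling of the libraries (TMM, limma adjusted p = 0.0574). The promoters of these genes are shown because these were the members that passed. Both are the 250 bases before the transcription start in the RefSeq promoter table of build GRCh38.p14, and each matched GRCh37 at 1 place, for PMAIP1 at chr18:57566978-57567227 on the plus strand and for BCL2L11 at chr2:111878241-111878490 on the plus strand. The BCL2L11 stretch lies within the GENCODE span of that gene, which begins upstream of it at chr2:111876955. Both sequences are written 5′ to 3′ with motif matches in capitals.
PMAIP1: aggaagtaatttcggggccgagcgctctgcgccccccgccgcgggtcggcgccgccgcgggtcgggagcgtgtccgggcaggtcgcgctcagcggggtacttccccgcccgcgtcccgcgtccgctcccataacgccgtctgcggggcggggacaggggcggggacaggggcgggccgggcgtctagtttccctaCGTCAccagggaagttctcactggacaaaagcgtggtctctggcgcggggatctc
BCL2L11: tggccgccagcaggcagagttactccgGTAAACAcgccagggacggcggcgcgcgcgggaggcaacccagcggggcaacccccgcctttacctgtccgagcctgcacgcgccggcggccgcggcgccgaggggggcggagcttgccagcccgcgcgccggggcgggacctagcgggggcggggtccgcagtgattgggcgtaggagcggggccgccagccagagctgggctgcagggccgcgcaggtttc

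The capitals in the PMAIP1 sequence are CGTCA, the reverse complement of TGACG, the core of the cAMP response element to which ATF and CREB proteins bind, at bases -55 to -51 from the start. The capitals in the BCL2L11 sequence are GTAAACA, the core bound by forkhead proteins, at bases -223 to -217. Promoters of 8 of the 10 members were in the table, in 10 entries, and MCL1 and BIK had no entry. Searched on both strands were TGACG, held by 21.2% of 35116 promoters of the same length, TGANTCA (AP-1) by 6.57%, TGATGNAAT (C/EBP-ATF) by 0.888%, GTAAACA by 2.98% and CACGTG (E-box) by 6.34%. A TGACG match was also in entries of BCL2, BCL2L1, BMF and HRK, and the BBC3 entry held TGANTCA and CACGTG. The BCL2A1 entry held none of these letters. No match overlapped a match to another motif, and a match is a description of the letters, not evidence of binding.

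Values are gene estimates that the authors scaled so that the upper quartile of a library is close to 1000, and they are a normalized signal, not counts. The depth estimated from the steps between low values was 12.2 to 18.8 M reads in the DMSO libraries and 10.6 to 20.1 M in the TLT libraries. Lane 1 held all MDA-MB libraries and lane 2 all HCC libraries, with both treatments of a line together. Markers of breast carcinoma epithelium (6 genes) summed to 708 to 74237 in the DMSO libraries. All were above the filter on low values, which uses the mean over all libraries. Single lines were far lower, with CDH1 at 0 in MDA-MB-231 and EPCAM at 4.73 in HCC38 under DMSO. In the DMSO libraries basal markers summed to 13.9 to 76226, mesenchymal markers to 930 to 145773 and luminal and HER2 markers to 541 to 2345. Of 7 blood cell markers 5 were below that filter, PTPRC, CD3E, MS4A1, LYZ and HBB. Of 4 endothelial markers PECAM1, CDH5 and VWF were below it.

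The levels of the members in DMSO showed which of them these lines express. Per kb of the canonical GENCODE transcript, MCL1 stood highest with a median of 1683 over the 8 lines (1099 to 3184), followed by BCL2L1 with 479.8 (204 to 1823), PMAIP1 with 382 (151 to 2391) and BCL2L11 with 168 (29.8 to 227). BBC3, which encodes PUMA, which binds all anti-apoptotic members, had a median of 39.4 per kb, BIK, whose protein sits at the endoplasmic reticulum, 26.6, BMF, whose protein is tied to the dynein light chain, 23.6, and BCL2 16.1. BCL2A1 and HRK stood near the detection limit, with medians of 0.63 and 0.61 per kb. MCL1 exceeded BCL2L1 per kb in 7 of 8 lines, BCL2L1 exceeded PMAIP1 in 6, PMAIP1 exceeded BCL2L11 in 7 and BCL2L11 exceeded BBC3 in 7. BBC3 exceeded BIK in 3 of 8 lines and BCL2A1 exceeded HRK in 4, so these neighbours did not separate beyond the spread over lines, and BIK over BMF and BMF over BCL2 held in 6 lines each. These per kb levels rest on 1 transcript per gene, which may not be the length the authors used.

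The lines differed far more from each other than by treatment for most members. Between the lowest and the highest line in DMSO, the normalized value of MCL1 differed 2.90-fold, the smallest spread, and that of BCL2L11 7.61-fold, BCL2L1 8.94-fold, BMF 10.7-fold, PMAIP1 15.8-fold, BIK 26.3-fold, BCL2 29.3-fold and BBC3 38.1-fold. HCC38 had the highest DMSO values of PMAIP1 (4541), BBC3 (531) and BMF (371) and the lowest of MCL1 (4340), BCL2L1 (525) and BIK (14.2), of which BCL2L1 was close to HCC1395 (549) and MDA-MB-157 (599). The value of PMAIP1 was 105% of that of MCL1 in HCC38 under DMSO and 4.94% to 13.5% of it in the other 7 lines. MDA-MB-231 had the highest DMSO values of BCL2 (381) and BCL2L1 (4693). MDA-MB-436 had the highest of MCL1 (12575) and HRK (77.8), MDA-MB-468 of BCL2L11 (1155), HCC1143 of BIK (373) and HCC70 of BCL2A1 (28.8). HCC1143 had the lowest BCL2, with a value of 13.01.

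**Figure D1:**
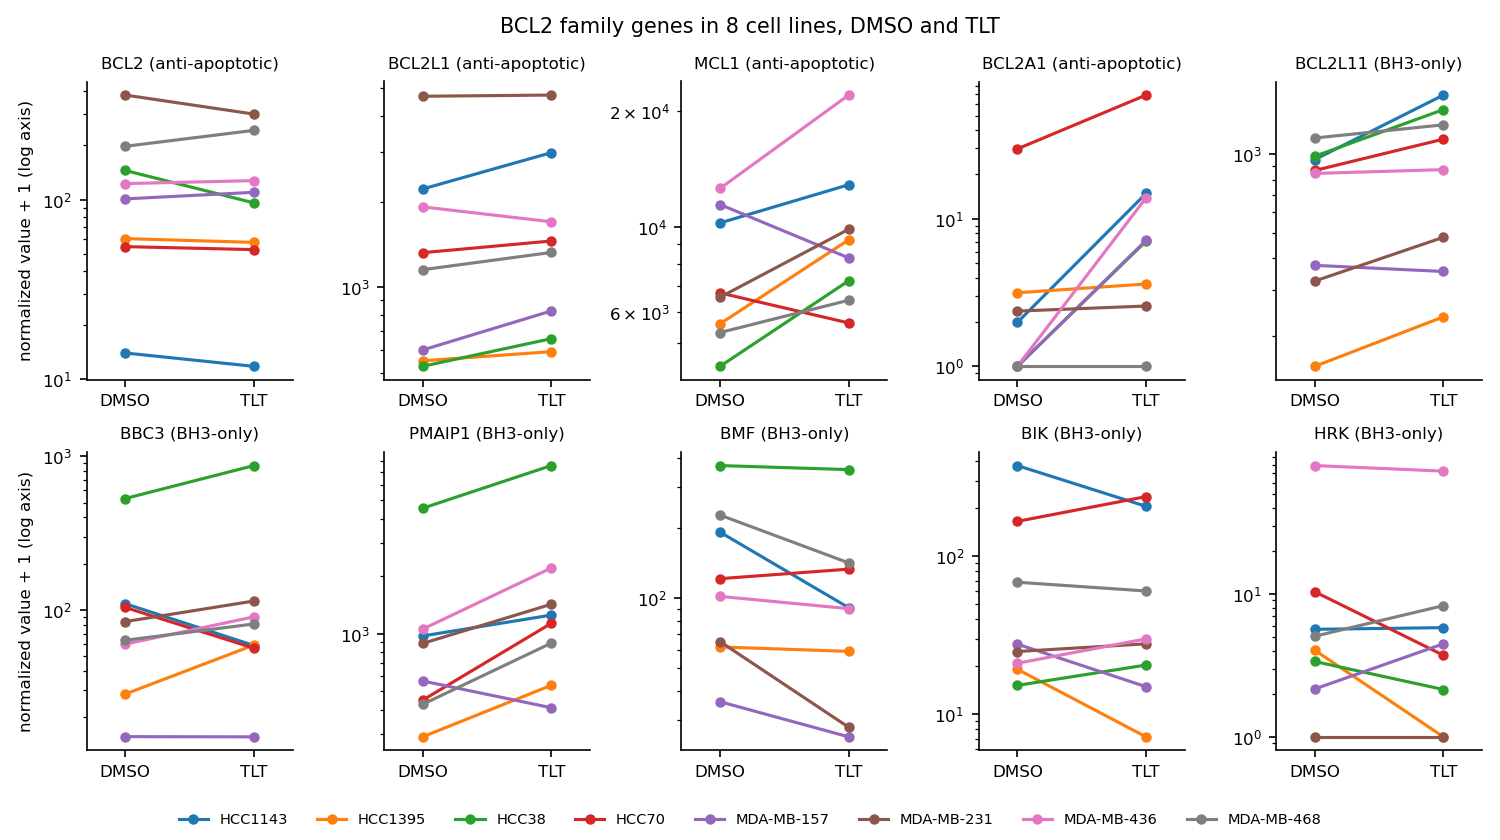
Normalized value plus 1 of each member (log axis, 1 panel per gene with its own scale) under DMSO and TLT, with 1 line drawn per cell line. PMAIP1 and BCL2L11 slope upward in 7 of 8 lines, with MDA-MB-157 the exception in both, and the lines of every member span overlapping ranges in both treatments.

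The question put to the members was how each changed with TLT within a line. The change was tested on log2(value + 1) with limma, the cell line as a block and p-values adjusted over 14544 genes whose mean value reached 10. Of the 10 members 9 entered the fit. Called at an adjusted p under 0.05 were 2 of these 9, both higher with TLT, against 25.9% of all genes tested, with 15% higher and 10.9% lower. The median log2 fold change was 0.19 for the 3 anti-apoptotic members tested, −0.02 for the 6 BH3-only members and 0.05 for all genes tested. Without HRK, which passed the filter through 1 line alone, the BH3-only median was 0.17, near the anti-apoptotic one. With TMM scaling in place of the deposited upper quartile, the median of all genes moved to −0.0025, a shift of −0.05, and the share of calls that were higher went from 58.0% to 46.7%, while 25.4% of genes were called, 11.9% higher and 13.5% lower.

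PMAIP1 (chr18:57567228-57571537, GRCh37, plus strand) had the largest rise of the fitted members. Its value went from 972 to 1251 in HCC1143, from 287 to 536 in HCC1395, from 4541 to 7600.0 in HCC38, from 447 to 1132 in HCC70, from 888 to 1426 in MDA-MB-231, from 1056 to 2208 in MDA-MB-436 and from 425 to 892 in MDA-MB-468. In MDA-MB-157 it went from 565 to 409. The value was thus higher in 7 of 8 lines, and the ranges of the DMSO and TLT libraries overlapped because the lines start from different levels. In bulk RNA a change within each cell and a change in the share of cells that carry the transcript cannot be told apart. The log2 fold change was 0.71 (95% interval 0.37 to 1.05, limma adjusted p = 0.00668), and the gain per line ran up to 1.34 in HCC70. It was called with TMM scaling (0.66, adjusted p = 0.0205) and with each line left out (adjusted p = 0.000278 to 0.0242), and lost the call in the 4 MDA-MB lines alone (0.59, adjusted p = 0.130) and in the 4 HCC lines alone (0.84, adjusted p = 0.0515).

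BCL2L11 (chr2:111876955-111926021, GRCh37, plus strand) had values that went from 954 to 1690.3 in HCC1143, from 152 to 236 in HCC1395, from 982 to 1486 in HCC38, from 866 to 1143 in HCC70, from 324 to 478 in MDA-MB-231, from 843 to 872 in MDA-MB-436 and from 1155 to 1298 in MDA-MB-468. In MDA-MB-157 it went from 373 to 353. The value was higher in 7 of 8 lines, with MDA-MB-157 again the exception and MDA-MB-436 nearly level. The log2 fold change was 0.39 (95% interval 0.16 to 0.62, limma adjusted p = 0.0173). This call was lost with TMM scaling (0.35, adjusted p = 0.0574), without HCC1143 (0.33, adjusted p = 0.05002), in the MDA-MB lines alone (0.17, adjusted p = 0.457) and in the HCC lines alone (0.61, adjusted p = 0.0561).

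BMF (chr15:40380091-40401093, minus strand) was the one BH3-only gene with a lower value in most lines. Its log2 change was 0.14 in HCC70 and −0.06 to −1.23 in the other 7, and its largest differences were in MDA-MB-231 (64.1 with DMSO, 26.8 with TLT) and HCC1143 (191 and 90.0). The log2 fold change of −0.46 (SE 0.18, 95% interval −0.84 to −0.08) did not pass the adjusted threshold (limma adjusted p = 0.0712). Without both MDA-MB-157 and HCC70, BMF was called lower (−0.55, adjusted p = 0.0439), in a fit that leaves out the only line where it was higher.

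The other BH3-only members moved in different directions in different lines. BBC3 (chr19:47724079-47736023, minus strand) changed by 1.06 in HCC1395 and 0.71 in HCC38 on the log2 scale, by −0.90 in HCC1143 and −0.88 in HCC70, and by −0.0048 to 0.59 in the other 4. Its mean log2 fold change was 0.17 (SE 0.23, limma adjusted p = 0.603). BIK (chr22:43506756-43525718, plus strand) was higher in 4 lines and lower in 4, from −1.42 in HCC1395 to 0.52 in HCC70, with a mean of −0.22 (SE 0.24, adjusted p = 0.539). The change in HCC1395 rests on an estimated 18 reads with DMSO and 5 with TLT. HRK (chr12:117293949-117319246, minus strand), a gene known mainly from neurons, had values of at most 9.35 in every library except those of MDA-MB-436, at 77.8 with DMSO and 71.1 with TLT, and passed the filter through that line alone. Its log2 fold change was −0.31 (SE 0.34, adjusted p = 0.537).

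Among the anti-apoptotic members MCL1 (chr1:150533371-150552214, minus strand) had a higher value in 6 of 8 lines. The value of MCL1 went from 10232 to 12855 in HCC1143, from 5597 to 9247 in HCC1395, from 4340 to 7241 in HCC38, from 6562 to 9849 in MDA-MB-231, from 12575 to 21976 in MDA-MB-436 and from 5313 to 6445 in MDA-MB-468. In HCC70 it went from 6735 to 5627 and in MDA-MB-157 from 11422 to 8302. These 6 lines were higher and the other 2 lower, and the ranges of both treatments overlapped. The log2 fold change was 0.34 (SE 0.13, 95% interval 0.06 to 0.63) and did not pass the adjusted threshold (limma adjusted p = 0.0699). MCL1 was called higher without HCC70 (0.43, adjusted p = 0.0362), without MDA-MB-157 (0.46, adjusted p = 0.0125) and without both (0.58, adjusted p = 0.000289). Because these were the 2 lines in which MCL1 was lower, leaving them out favours such a call. They were also the 2 lines in which the values summed over all genes rose most with TLT. A link of these sums to the MCL1 values was not tested.

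The library kit did not mark strand, so reads of MCL1 and of a gene on the opposite strand at the same place cannot be told apart. ADAMTSL4 is an extracellular matrix gene whose annotated span overlaps that of MCL1 on the opposite strand. Overlap of their exons was not examined, and shared reads were not tested. The gene rose (log2 0.77, limma adjusted p = 0.00616), from a mean value of 90.6 with DMSO to 153 with TLT. Its mean was far below the MCL1 mean of 7847 with DMSO and 10193 with TLT. ADAMTSL4 was also the gene whose level was most like that of MCL1 over the 16 libraries (Pearson r 0.84).

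BCL2L1 (chr20:30252255-30311792, minus strand), which encodes BCL-XL, had a log2 change of 0.01 to 0.46 in 7 lines and −0.17 in MDA-MB-436. In DMSO its value ran from 525 over a median of 1235 to 4693, and with TLT from 591 over 1387 to 4739, so that the treatments overlapped almost entirely. The mean change was 0.19 (SE 0.08, 95% interval 0.01 to 0.36) and did not pass (limma adjusted p = 0.1005). BCL2 (chr18:60790579-60987361, minus strand), the founding member of the family, ran from 13.01 over 111 to 381 with DMSO and from 10.8 over 102 to 298 with TLT. Its log2 fold change was −0.11 (SE 0.14, 95% interval −0.41 to 0.20, adjusted p = 0.609), with a lower value in 5 lines and a higher one in 3.

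BCL2A1 (chr15:80253234-80263538, minus strand), an NF-kB target best known in blood cells, was below the filter with a mean value of 9.03 and was tested by itself. It was listed at 0 with DMSO in HCC38, MDA-MB-157, MDA-MB-436 and MDA-MB-468, and with TLT at 6.06, 6.15, 12.9 and 0 in these lines. The value went from 0.99 to 13.9 in HCC1143, from 2.15 to 2.62 in HCC1395, from 28.8 to 68.0 in HCC70 and from 1.37 to 1.56 in MDA-MB-231. BCL2A1 was thus higher with TLT in 7 lines and at 0 in both libraries of MDA-MB-468, while HCC70 stood above all other lines in both treatments. The mean change of log2(value + 1) was 1.74 ± 1.52 (SD, n = 8, exact two-sided sign-flip permutation p = 0.0156, the smallest that 7 lines with a change can give). The estimated reads behind these values were few, at most 24.6 in a DMSO library and 75.04 in a TLT library. From DMSO to TLT they went from 2.13 to 2.12 in HCC1395 and from 1.09 to 1.05 in MDA-MB-231. The higher values in HCC1395 and MDA-MB-231 thus came without more reads, and the permutation p counts both lines as rises. Of the 7 blood cell markers CD14 and HBA1 were called higher and the other 5, PTPRC among them, stayed below the filter. The list summed to 12.6 to 877 in DMSO libraries and 19.4 to 1568 in TLT libraries, and the highest sums were almost all CD14, with 866 and 1544. LYZ was higher with TLT in 7 lines, PTPRC in 4, HBB in 1 and CD3E and MS4A1 in none. Their part in the BCL2A1 values was not tested.

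**Figure D2:**
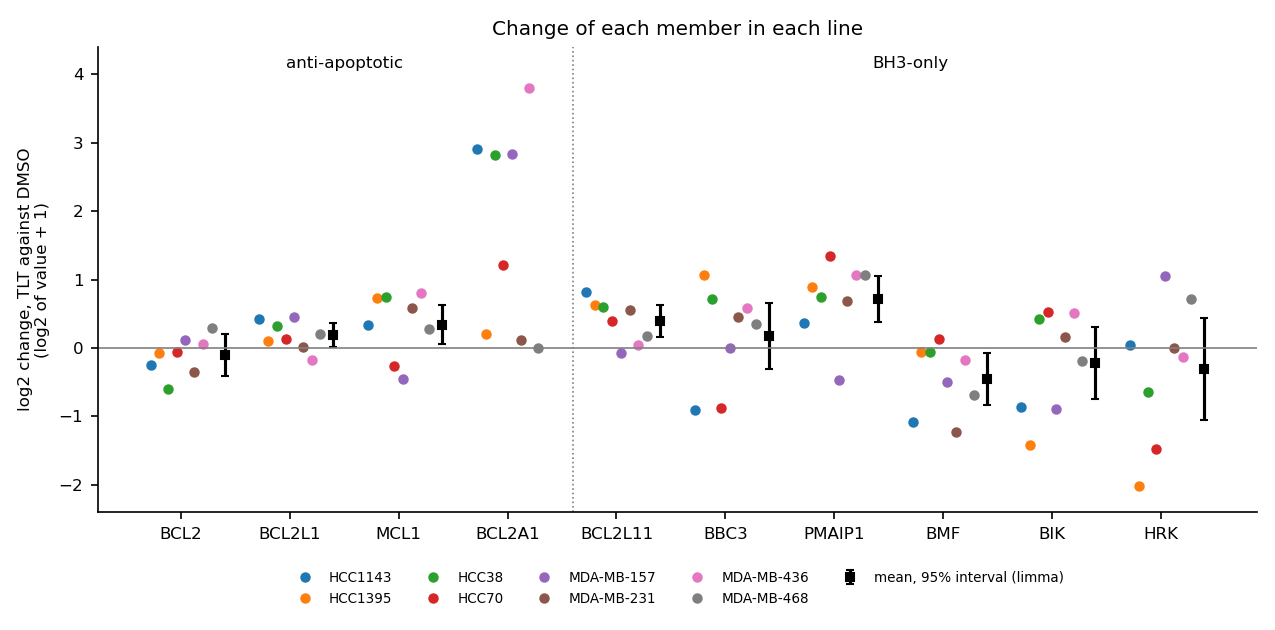
Change in log2(value + 1) with TLT for each member (points, 1 per cell line) with the limma mean and its 95% interval (black squares and bars, absent for BCL2A1, which was outside the fit). The intervals of PMAIP1 (0.37 to 1.05) and BCL2L11 (0.16 to 0.62) lie above 0, and those of MCL1, BCL2L1 and BMF also leave out 0 but these genes did not pass the adjusted threshold.

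Anti-apoptotic and BH3-only members were set against each other line by line. The median log2 change of the 3 anti-apoptotic members in the fit was above 0 in 7 of 8 lines, from −0.06 in HCC70 to 0.33 in HCC1143. The median of the 6 BH3-only members was above 0 in 6 lines, from −0.41 in HCC1143 to 0.51 in HCC38. Without HRK, whose values outside MDA-MB-436 rest on few reads, it was still above 0 in 6 lines, with −0.86 in HCC1143 and 0.63 in HCC1395, where it had been 0.28 with HRK. The BH3-only median exceeded the anti-apoptotic median in 5 lines and was below it in 3, with differences of −0.74 to 0.32. Without HRK it was again higher in 5 lines and lower in 3, with differences of −1.19 to 0.53, so neither class moved ahead of the other in all lines. With BCL2A1 counted, which was below the filter and rests on few reads, the anti-apoptotic median ran from 0.04 to 0.53. It was then above 0 in all 8 lines, as HCC70 went from −0.06 to 0.04 through this gene. MDA-MB-157 had 5 of its 6 BH3-only members lower with TLT, the most of any line, and 1 higher, which was HRK at a value of at most 3.47. Of the lower members in MDA-MB-157, BBC3 was in effect level, at 13.94 with DMSO and 13.89 with TLT. Its value rests on an estimated 12 reads in each library, and that of BIK on 23 with DMSO and 12 with TLT. In that line the median of all tested genes was itself 0.22.

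The pair of NOXA and MCL1, which bind each other as proteins, was also compared within lines. The log2 change of PMAIP1 exceeded that of MCL1 in 7 of 8 lines, with differences of −0.01 to 1.60 and a median of 0.13. The largest differences were 1.60 in HCC70 and 0.79 in MDA-MB-468. In HCC70 the value of PMAIP1 went from 6.64% to 20.1% of that of MCL1, and in MDA-MB-468 from 8.01% to 13.8%. In HCC38 and MDA-MB-157 it stayed near 105% and 4.92%. The change of BCL2L11 exceeded that of MCL1 in 3 lines and was below it in 5, from −0.76 in MDA-MB-436 to 0.66 in HCC70. These are ratios of RNA values of unequal length and say nothing of the proteins.

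**Figure D3:**
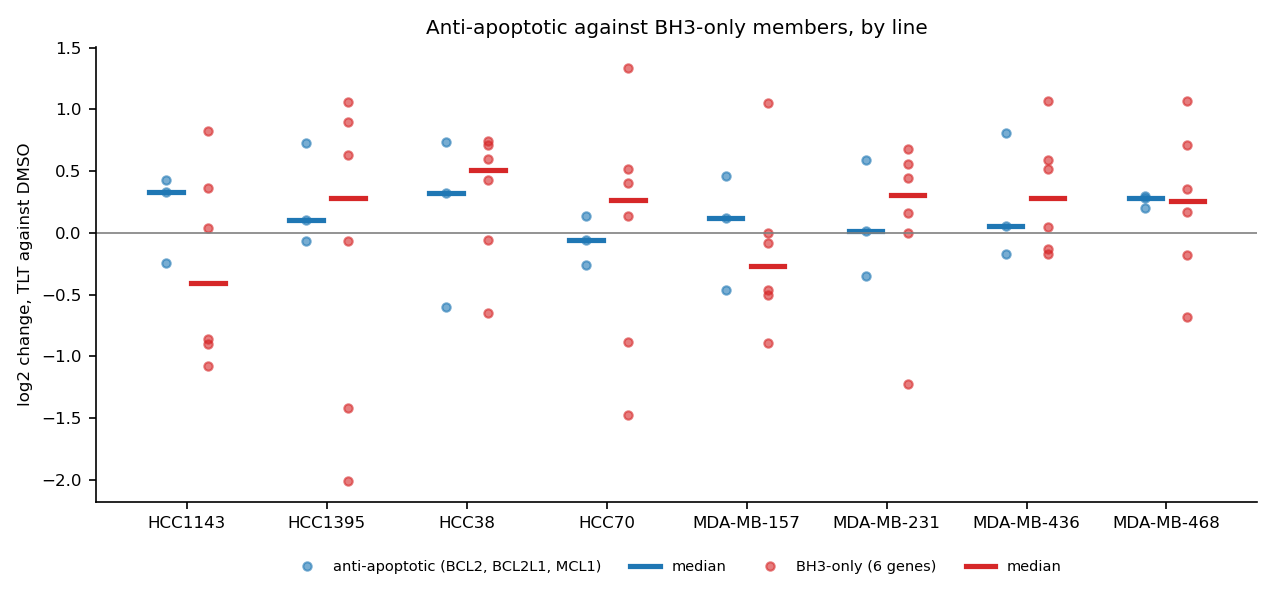
Log2 change with TLT of the 3 anti-apoptotic members in the fit (blue) and the 6 BH3-only members (red) in each cell line, with the median of each class as a bar. The BH3-only bar is above the anti-apoptotic bar in 5 of 8 lines and lowest, at −0.41, in HCC1143, where it is −0.86 without HRK.

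The other apoptosis genes gave the setting of these changes. Of 48 tested, 7 were higher, 4 lower and 37 did not pass, with a median log2 fold change of 0.008. This is near the shares of all genes tested, 15% higher and 10.9% lower. The effectors on which the members act did not pass in any case, with BAX at 0.04 (adjusted p = 0.772), BAK1 at −0.06 (adjusted p = 0.661) and BOK, a relative of both, at −0.17 (adjusted p = 0.624) on the log2 scale. BCL2L2, which encodes the anti-apoptotic BCL-W, was at −0.10 (adjusted p = 0.654), and BCL2L10, another anti-apoptotic gene, was below the filter with mean values of 3.83 and 4.37. Of the other BH3-only genes BID, whose protein links death receptors to mitochondria, rose (0.35, SE 0.11, adjusted p = 0.0308), and BAD, which is controlled by phosphorylation, was at 0.13 (adjusted p = 0.360). Among 7 further BCL2-related genes BNIP3, a hypoxia target that acts in mitophagy, rose (0.57, adjusted p = 0.00288), as did BNIP2 (0.30, adjusted p = 0.0348).

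Downstream of the membrane, CYCS, the gene of cytochrome c, rose in all 8 lines (0.28, limma adjusted p = 0.0113), while the other 6 genes of the apoptosome and caspase list did not pass. None of 5 genes of inhibitor of apoptosis proteins and none of 4 genes that set MCL1 protein turnover passed. In the death receptor pathway 3 of 9 genes fell and none rose, against 10.9% lower and 15% higher of all genes. TNFRSF1A, the main TNF receptor, fell from a mean value of 1572 to 973 (−0.59, adjusted p = 0.00237), CASP8, the initiator caspase, from 635 to 431 (−0.58, adjusted p = 0.00284), and FADD, an adaptor that brings CASP8 to death receptors, from 1116 to 724 (−0.89, adjusted p = 0.00911). TNFRSF1A and CASP8 were lower in all 8 lines and FADD in 7. The other 6 genes of that pathway did not pass and went in both directions. Above 0 were TNFRSF10A (0.37, limma adjusted p = 0.0679), TNFRSF10B (0.21, adjusted p = 0.0857) and CFLAR (0.005). Below 0 were TRADD (−0.36), FAS (−0.15) and CASP10 (−0.05). With TMM scaling BNIP2 was no longer called (adjusted p = 0.108), and with single lines left out the call was lost in 4 of 8 fits for BID and in 6 for BNIP2.

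Of 10 transcription factors known to act on BCL2 family genes, 3 rose and 1 fell, against 15% and 10.9% of all genes. ATF4, the effector of the integrated stress response, which acts on PMAIP1 and other BH3-only genes, had a mean value of 7030.2 with DMSO and 11077 with TLT and was higher in all 8 lines (0.67, SE 0.06, limma adjusted p = 4.1e-05). STAT3, which acts on BCL2L1 and MCL1, rose (0.33, adjusted p = 0.00284), as did RELA, the NF-kB subunit (0.32, adjusted p = 0.00979). DDIT3, which encodes CHOP, a factor induced by ATF4 that acts on BCL2L11 and BBC3, fell from a mean of 422 to 227 and was lower in all 8 lines (−0.94, SE 0.22, adjusted p = 0.00929). FOXO3, a forkhead regulator of BCL2L11, was at 0.35 (adjusted p = 0.0846). FOXO1, another forkhead factor of the list, was at −0.43 (adjusted p = 0.173), and neither passed.

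**Figure D4:**
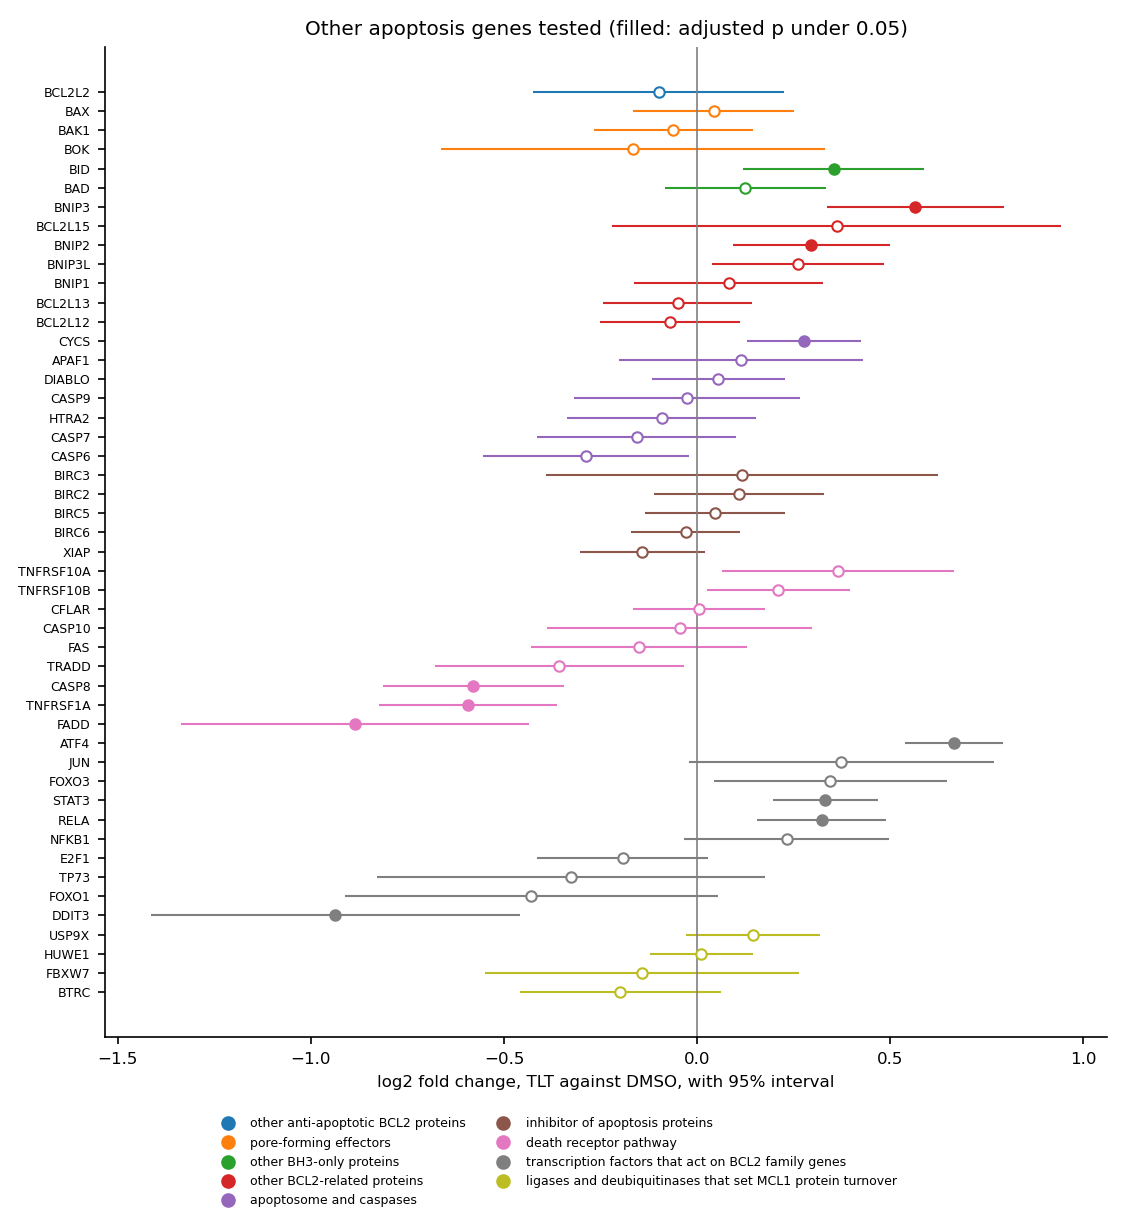
Log2 fold change with TLT and its 95% interval from limma for the 48 other apoptosis genes tested, coloured by list, with filled points for an adjusted p under 0.05. The 11 filled points are 7 to the right of 0, with ATF4 (0.67) the farthest, and 4 to the left, with DDIT3 (−0.94) and FADD (−0.89) the farthest.

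Over the 16 libraries, which are pairs from 8 lines, the level of log2(value + 1) of each fitted member was set beside every gene with a mean of at least 100. The genes most like PMAIP1 were ARID3B (Pearson r 0.89), SFRS12IP1 (0.86) and ATF1 (0.86). Those most like BCL2L11 were PJA1 (0.91), ENPP4 (0.91) and TET3 (0.90). The nearest gene of BCL2 was FBLN5 (0.95), of BCL2L1 RIMS2 (0.94), of BBC3 C3orf63 (0.94), of BMF MED29 (0.91), of BIK DNAJA4 (0.93) and of HRK BHMT2 (0.89). These correlations mainly follow levels that differ between lines, and ARID3B (0.09) and PJA1 (−0.14) had no called change with TLT.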

How the data were processed

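Poly(A) RNA of 8 lines treated with TLT or DMSO was sequenced as 50-cycle single reads without strand. Reads were mapped by the authors with MapSplice and quantified with RSEM. The deposited values are a signal scaled to the upper quartile of each library, on which no count test was run. Of 20531 rows, 29 without a gene name (0.0398% of the signal) were left out. A second deposited matrix held identical values for the 20474 gene names it shares. A deposited table of the authors' fold changes per line was not used.

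For genes with a mean of 10 or more, limma 3.58.1 (R 4.3.3) fitted log2(value + 1) on treatment and cell line, with a mean-variance trend, robust moderation and Benjamini-Hochberg adjustment. The line, named in the labels, pairs the libraries, whose deviations from their treatment means correlated within lines at 0.900 to 0.954. BCL2A1 was tested with all 256 sign patterns in Python 3.11.15 with numpy 2.4.6. Depth was estimated from the steps of values under 60, of which 83.2% to 85.4% were whole multiples within 0.01 reads. The p-values measure the spread between these lines, with 1 culture per line and treatment. Positions are from GENCODE on GRCh37.

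The members and the gene lists were chosen with earlier results of these data known, so they are not independent evidence. Named were all 10 members, every gene of a list of 3 or fewer, up to 3 called genes of smallest p of each longer list, and the genes most like each member. RELA, FOXO3, FOXO1 and the 6 death receptor genes that did not pass were named beside them after their values were seen. Another 3 genes of the lists are not reported here and enter no count of list genes, and MARCH5 was not found by that name. The fit was also run on simulated data that had the same change in every line. Changes in the real data differed between lines, so that run says nothing about the calls given here. Alternatives were a fit without the block, TMM scaling, moderation without trend, other pseudocounts, filters and thresholds, the second matrix, each line left out, each lane alone, both HCC70 and MDA-MB-157 left out and, chosen after seeing the data, BH3-only medians without HRK.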

Additional observations from a re-analysis of the deposited data

Results flagged for a closer look

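In 2 of 26 groups of 8 lines examined, 1 line lay far from the others in its log2 change with TLT, where chance gives about 1 in 20. BAK1 changed by −0.68 in MDA-MB-436, while its mean over lines was −0.06. DDIT3 changed by −2.72 in HCC70, where all 8 lines were lower. None of the 10 members had such a line.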

How the results depend on the processing

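Without the replicate block on cell line, 7 genes, 0 members and 0 other apoptosis genes were called by limma (517, 0 and 2 at an unadjusted p under 0.05), against 3774, 2 and 11 with it. In the MDA-MB lines alone these counts were 1289, 0 and 6, and in the HCC lines alone 175, 0 and 1, with 2 and 5 members at an unadjusted p under 0.05. These fits have 4 lines each. At an adjusted p under 0.01 they were 1564, 1 and 8, with PMAIP1 the member called. TMM scaling called 1 member, PMAIP1. Leaving out MDA-MB-157 and HCC70 called 3823 genes, 1989 higher and 1834 lower. Among them were 4 members, 3 higher (PMAIP1, BCL2L11 and MCL1) and BMF lower, and 17 other apoptosis genes. MCL1 was lower in both of these lines and BMF was higher only in HCC70, so this choice of lines favours both calls. With each line left out, 2413 (without MDA-MB-436) to 3880 (without HCC38) genes, 1 (without HCC1143) to 3 members and 9 to 13 other apoptosis genes were called. Over these fits the mean change of BCL2A1 ran from 1.44 to 1.98 (exact p = 0.0156 to 0.0312), and without the filter limma gave it an adjusted p of 0.0165. The sign turned for BCL2 (0.030) and HRK (0.41) in the MDA-MB lines alone and for BBC3 (−0.0033) in the HCC lines alone, none of which was called. Of 169 single values of the fitted members, 154 kept their direction and side of the threshold, 8 lost a call (BCL2L11 in 5, PMAIP1 in 3), 4 gained one (MCL1 in 3, BMF in 1) and 3 turned sign. The cause of these shifts was not tested. BCL2A1 and HRK are limited by depth, with few reads in most libraries, and BIK also rests on few reads in several lines.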
